A study of Mus musculus with 30 samples.

Results

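The mutant-labelled olfactory epithelium at 0 h differed from the wild-type-labelled epithelium in immunoglobulin genes, which were higher, in subunits of the respiratory chain, many of which were higher, and in single genes such as Zbtb16, Fkbp5 and Lcn2, which were lower. This baseline comparison set the 3 arrays titled SR-A mutant at 0 h against the 3 arrays titled wild type at 0 h, chosen by title alone, so it used 6 of the 30 arrays of the series. Every array was made from microdissected olfactory epithelium of mice that the series describes as 6 weeks old. The remaining arrays, at 2, 8, 16 and 48 h, followed the tissue after surgical removal of both olfactory bulbs. What 0 h means, unoperated mice or mice killed at once after the operation, is left unsaid in the labels, as are the strain, the sex and the targeted allele. The series speaks of 3 mice per genotype without tying an array to a mouse, so p-values measure only the spread between arrays of a group, pooled over the fitted groups, and part of that spread may be technical.

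The olfactory epithelium, high in the nose, holds odor-sensing neurons between supporting (sustentacular) cells, above basal cells that renew it throughout life, with glands, blood vessels, resident macrophages and antibody-secreting cells in and below it. SR-A, the class A scavenger receptor encoded by Msr1, is a trimeric surface protein of macrophages that binds modified lipoproteins, bacterial surfaces and cell debris and carries them to the lysosome. A baseline comparison of genotypes shows which transcripts already differ before any response to injury. Values are MAS5 signals, the linear brightness that the array software gives to each set of probes for a transcript. Differences are log2 values of mutant-labelled minus wild-type-labelled group means ± standard error, 3 arrays in each group, after signals below a floor of 113.7 had been raised to it. A probe set counted as changed where limma's adjusted p was under 0.05.

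Msr1, the gene of the receptor, gave 161.0, 83.1 and 173.8 on the brighter of its probe sets in wild-type-labelled replicates 1, 2 and 3. The mutant-labelled replicates gave 543.9, 548.5 and 451.2. The mutant-labelled arrays were therefore higher, by 1.95 on the log2 scale or 3.87-fold without the floor, and the groups did not overlap. The other probe set gave 112.0, 54.2 and 105.2 against 202.3, 206.0 and 232.1. Its wild-type-labelled signals all lie below the floor of 113.7, so it was at least 1.87-fold higher, and 1 of the 3 on the brighter probe set lies below it too. The exact two-sided permutation test gave p = 0.1 for each, the smallest value that 3 arrays against 3 allow. Neither probe set passed the filter on low signals. Without the filter, limma gave adjusted p = 0.00021 and 0.00119, for floored differences of 1.8 and 0.91. At each later time both probe sets were again higher on the mutant-labelled arrays, without overlap. At 2 h the brighter one read 131.0, 170.5 and 143.6 against 587.4, 314.7 and 378.3. Its gap was narrow at 48 h, between 295.1 and 297.5. On the other, 1 mutant-labelled 2 h signal, 103.8, lies below the floor. The sources used here do not place these probes inside or outside the altered part of Msr1, so its signal is no test of the labels, and every direction below rests on the arrays labelled mutant and wild type. Xist, the transcript of the inactive X chromosome, was below the floor on all 6 arrays, between 41.7 and 97.3. The Y-linked Eif2s3y lay between 1509.7 and 2059.2, on a probe set whose name marks probes shared within a gene family. Of 2 other Y-linked genes, Uty lay between 407.5 and 565.6 and Kdm5d below the floor, between 16.8 and 47.4. The sex of the mice was not read from these signals.

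The tissue markers matched the label, with Omp, of mature olfactory sensory neurons, among the bright signals at 27105.5 to 36515.7 on the 6 arrays. Of the markers of T and natural killer cells, 6 of 12 were at or below the floor on all 6 arrays, as were 5 of 15 of skeletal muscle and 5 of 14 of brain neurons and olfactory bulb. A control probe set for the 3′ end of 18S ribosomal RNA separated the genotypes. It read 453.9, 485.8 and 536.2 in the wild-type-labelled replicates at 0 h and 5535.4, 7009.4 and 1958.7 in the mutant-labelled ones. Over the series it lay between 421.1 and 1070.1 on the 15 wild-type-labelled arrays and between 1322.2 and 7009.4 on the 12 mutant-labelled arrays at 0, 8, 16 and 48 h. On the 3 mutant-labelled arrays at 2 h it lay between 246.7 and 545.3. At 0 h this control thus moved with every genotype difference given below. The exceptions to this at 2 h are given with the genes called at every time, and for the other differences its part was not tested. The Gapdh 3′ minus 5′ difference, a measure of RNA integrity, did not separate the groups at 0 h, at -0.26 to -0.18 against -0.28 to -0.13.

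Of 6968 probe sets tested, 1624 (23.3%) changed, 684 of them higher (9.82%) and 940 lower (13.5%) in the mutant-labelled arrays. The 2 groups of arrays did not overlap in 1566 of the 1624, while 43.2% of all probe sets tested had groups that did not overlap. Most changes were small. The median size among the changed probe sets was 0.50 on the log2 scale, and 51 were higher and 40 lower by at least 1. At a size of at least 2 there were 11 higher and 1 lower. The median over all probe sets tested was -0.056. Counted by gene, 1203 of 5396 (22.3%) changed, 519 higher (9.62%) and 684 lower (12.7%). The count fell to 1056 and 989 probe sets without wild-type-labelled replicate 1 or 3, and to 1009 and 1081 without mutant-labelled replicate 2 or 3. Of the 115 probe sets named by rule that changed, 64 held without each of the 6 arrays in turn.

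**Figure D1:**
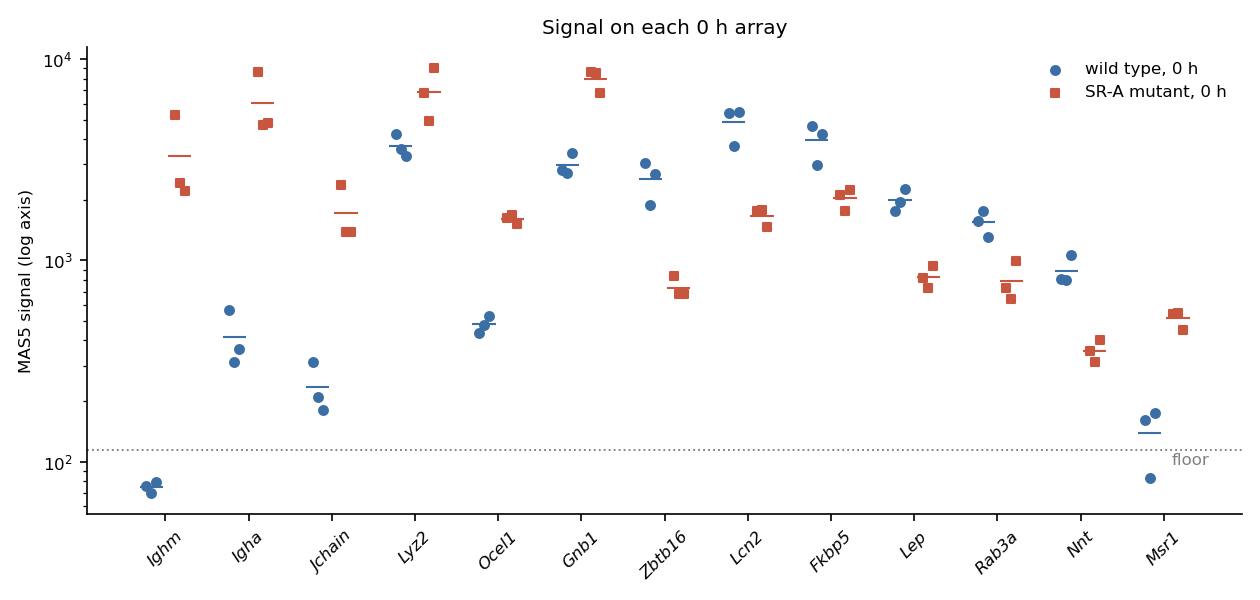
MAS5 signal on a log axis for 13 genes on each of the 6 arrays at 0 h, with a bar at each group mean and the floor of 113.7 as a dotted line. Ighm lies below the floor on the 3 wild-type-labelled arrays (circles) and between 2222.9 and 5251.7 on the mutant-labelled ones (squares). In none of the genes shown do the groups overlap, which was required of the largest rises and falls when they were chosen.

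Immunoglobulin transcripts gave the largest differences of the comparison. Ighm, the constant region of the IgM heavy chain, read 75.3, 69.9 and 79.2 on the wild-type-labelled arrays and 5251.7, 2414.5 and 2222.9 on the mutant-labelled ones. With the wild-type-labelled arrays at the floor, it was at least 26.8-fold higher (adjusted p = 4.14e-05). Igha, the heavy chain of the mucosal antibody IgA, read 564.5, 313.8 and 364.2 against 8582.9, 4699.4 and 4797.2, a difference of 3.85 ± 0.58 (adjusted p = 0.000188). Jchain, which joins the units of secreted IgM and IgA, went from 312.8, 208.3 and 180.8 to 2380.8, 1391.2 and 1379.1, higher by 2.87 ± 0.43 (adjusted p = 0.000195). The light chain Igkv6-23 was higher by 4.18 ± 0.54. Mutant-labelled replicate 1 was the highest array for each of these 4 genes, and their calls held without each single array. Other variable-region probe sets followed, with Igkv4-70 higher by 1.97 ± 0.47 and Igkv6-14 at least 4.1-fold higher. Igkv6-14 moved by over 1.5 times without mutant-labelled replicate 1, where its signal was 1208.4 against 393.1 and 213.2. Igkv8-19 was higher by 1.72 ± 0.45, but missed the threshold without mutant-labelled replicate 2 (1.43, adjusted p = 0.0555). Ighv1-54 rose at least 3.16-fold and missed it in 4 of the 6 leave-outs, with a highest adjusted p of 0.098 without mutant-labelled replicate 1.

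Of the 12 markers of B and plasma cells on the array 6 were tested, and 4 of them rose, while none fell. Over all genes, 9.62% rose. Without wild-type-labelled replicate 2 the count was 4 higher and 1 lower. The 4 that rose were Ighm, Igha, Jchain and the first light chain given above, and the other 2 were not called. The list's median was 3.36, against -0.05 over all genes tested. The count and the median thus restate the differences of these 4 genes and add no separate evidence. The signals of the 12 markers summed to 10257 to 12723 on the wild-type-labelled arrays and to 23192 to 36556 on the mutant-labelled arrays. The sums largely restate the same 4 genes. In tissue, more cells of a type and more RNA per cell cannot be told apart. Several of these probe sets carry names that mark a gene family, and near-identical variable regions can share their probes, so a single gene among them is uncertain. Of the other Ighm probe sets, one that passed the filter rose by 1.08 (adjusted p = 0.0347) and another gave 0.45 (adjusted p = 0.326). Immunoglobulin signals also varied within the wild-type-labelled series. Ighm read 66.4, 57.7 and 63.1 at 48 h, as low as at 0 h, but 780.9, 719.5 and 1054.1 at 2 h and up to 3823.0 at 16 h. The wild-type-labelled arrays at 0 h were thus at the low end of the wild-type-labelled range for this gene.

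Outside the immunoglobulins, Anp32a, a nuclear inhibitor of phosphatase PP2A and of histone acetylation, read 513.8, 937.0 and 673.1 against 2806.9, 2913.6 and 3314.7, higher by 2.13 ± 0.47 (adjusted p = 0.00346). Its other probe set differed by 0.28 (adjusted p = 0.123). Avpi1, a vasopressin-induced transcript, went from 130.2, 147.0 and 462.3 to 908.2, 636.3 and 1177.2, higher by 2.09 ± 0.40. Pold2, the small subunit of DNA polymerase delta, was higher by 1.70 ± 0.25 and Sorbs3, the adhesion adaptor vinexin, by 1.80 ± 0.42. Gnb1, a G protein beta subunit used in odorant transduction among many pathways, rose on each of its 3 probe sets, by 1.42 ± 0.25, 0.83 ± 0.11 and 0.73. Cebpb, a transcription factor of inflammation and differentiation, rose from 4289.7, 3979.8 and 5152.7 to 8100.8, 6898.6 and 7299.8, by 0.74 ± 0.10 (adjusted p = 8.39e-05). Meig1, a gene of male germ cells, was at least 3.54-fold higher, with wild-type-labelled replicate 2 below the floor, and without that array it missed the threshold (1.36 on the log2 scale, adjusted p = 0.0523). Zbtb17, which encodes the Myc partner Miz-1, was higher by 1.77 ± 0.58 and missed the threshold in 5 of the 6 leave-outs, with a highest adjusted p of 0.126 without mutant-labelled replicate 3.

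Genes that respond to glucocorticoids, the stress steroids of the adrenal cortex, fell in 3 of 15 cases and rose in none, a count near the 12.7% of all genes that fell, and the list's median was -0.16. Zbtb16, a zinc finger repressor, read 3054.9, 1885.0 and 2691.6 on the wild-type-labelled arrays and 835.6, 678.1 and 678.0 on the mutant-labelled arrays. It fell by 1.78 ± 0.50 (adjusted p = 0.0146) and, without wild-type-labelled replicate 1, by 1.63 (adjusted p = 0.0558). Fkbp5, a co-chaperone that dampens the glucocorticoid receptor, went from 4639.6, 2993.8 and 4246.3 to 2107.7, 1758.8 and 2241.5, a fall of 0.94 ± 0.20 (adjusted p = 0.00233). Lcn2, which binds bacterial iron carriers, read 5422.3, 3686.2 and 5458.8 against 1762.9, 1784.3 and 1464.1, lower by 1.52 ± 0.28 (adjusted p = 0.00103). Its dimmer probe set gave -0.41 (adjusted p = 0.117). The groups did not overlap for any of the 3 genes, as for 43.2% of all probe sets tested. For Zbtb16 and Lcn2 this was part of the rule that named them.

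Lcn2 is also counted as an acute phase gene, and of 12 such genes 2 fell and none rose, again near the share over all genes. The other was the serum amyloid Saa2, at 1345.4, 323.1 and 210.3 against 123.8, 173.2 and 162.4. Its fall of 1.57 ± 0.46 rested on wild-type-labelled replicate 1, since without that array it was 0.78 lower (adjusted p = 0.139); without mutant-labelled replicate 1 it also missed the threshold. Slpi, a secreted inhibitor of neutrophil proteases, fell from 1160.9, 998.7 and 1281.0 to 495.5, 621.4 and 361.8, by 1.25 ± 0.29, with -0.35 (adjusted p = 0.115) on a second tested probe set. Lep, the fat cell hormone leptin, read 1755.2, 1955.0 and 2258.7 against 820.0, 732.5 and 934.0, lower by 1.26 ± 0.23 (adjusted p = 0.000977). It was the only member called among 5 fat cell genes, whose median was 0.07. Il6, an inflammatory cytokine, read 576.8, 334.1 and 441.5 against 291.5, 155.3 and 189.5, lower by 1.10 ± 0.34. The call of Il6 was lost in 4 of the 6 leave-outs, with a highest adjusted p of 0.112 without mutant-labelled replicate 2, and under quantile normalization (adjusted p = 0.0548). It was the only change among 16 cytokine and receptor genes. Of the remaining large falls, Psmg3, a proteasome assembly chaperone, was lower by 1.87 ± 0.44 and Slc27a1, a fatty acid transporter, by 1.78 ± 0.49. Neither lost its call without a single array, but a brighter Psmg3 probe set gave only -0.49 (adjusted p = 0.0466). Pnmt, which makes adrenaline, at least 3.51-fold lower, and the lymphocyte recombinase Rag1, at least 3.22-fold lower, came from dim probe sets that lost their calls in 6 and 5 of the 6 leave-outs, with highest adjusted p of 0.104 and 0.172. The other tested Pnmt probe set gave -0.28 (adjusted p = 0.458).

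Subunits of the mitochondrial respiratory chain were higher on the mutant-labelled arrays more often than other genes. The chain passes electrons from complex I to complex IV, pumping protons that ATP synthase uses to make ATP. Of 34 tested members 17 rose, where 9.62% of all genes did, and 2 fell, and the list's median was 0.28 against -0.05 over all genes. In complex I, which takes electrons from NADH, Ndufa5 read 7915.0, 8695.5 and 7367.1 against 11144.1, 14492.8 and 12325.1, higher by 0.66 ± 0.11 (adjusted p = 0.000603). Ndufc1, of the same complex, went from 4792.4, 5862.5 and 6174.4 to 7442.1, 10770.3 and 8485.4, also by 0.66, with a standard error of 0.16. Both had mutant-labelled replicate 2 as the highest array. Sdhb, the iron-sulfur subunit of complex II, rose by 0.28 ± 0.09. In complex III, Uqcrc1 rose by 0.41 ± 0.10 and the ubiquinone-binding Uqcrb by 0.43 ± 0.12. In complex IV, Cox7a2 rose by 0.48 ± 0.11, Cox7b by 0.35 ± 0.10 and Cox6a1 by 0.30 ± 0.10. In ATP synthase, Atp5j rose by 0.48 ± 0.09, the central stalk subunit Atp5c1 by 0.44 ± 0.12 and the catalytic-head subunit Atp5a1 by 0.22 ± 0.08. The members named beyond Ndufa5, Ndufc1 and the ones that fell were chosen after their values were seen, to show each complex.

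The members that fell had dimmer signals. Ndufa10, of complex I, read 1229.5, 1331.4 and 1085.0 against 822.2, 955.2 and 784.3, lower by 0.51 ± 0.11. Atp5pb, of the ATP synthase stalk, was lower by 0.70 ± 0.22, and by 0.41 (adjusted p = 0.178) without mutant-labelled replicate 3. Only 1 of these falls was called without that array, without mutant-labelled replicate 2 or without wild-type-labelled replicate 2. The count of 17 rose or fell with the arrays and the scaling used. It was 10 without wild-type-labelled replicate 3, 8 without mutant-labelled replicate 2, 9 in a fit of the 6 arrays alone and 10 after quantile normalization. Of the 17 that rose, 12 were also called higher in the mean genotype difference over 8, 16 and 48 h, in which 13.1% of all genes were called higher. On the mutant-labelled arrays at 2 h, 16, 3 and 8 of the 17 lay above the wild-type-labelled mean of that time in replicates 1, 2 and 3. The Gapdh 3′ minus 5′ difference of those arrays was 5.59, 0.15 and 1.27, and their 18S control was as low as in the wild type. At 8 h, with the 18S control high, 17, 17 and 16 of the 17 lay above. The parts of RNA integrity and of ribosomal RNA in this difference were not tested.

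Promoters of these genes often hold sites for nuclear respiratory factor 1, a transcription factor of mitochondrial genes. Its palindromic core, CGCATGCG, which reads the same on both strands, was searched for in RefSeq windows of 250 bases before to 50 after each gene's start (build GRCm38.p6). It was in 615 of 32851 windows (1.87%) and in 6 of the 25 tested respiratory chain genes that had a window (24%). Of these 6, Uqcrc1, Cox6a1 and Atp5j rose and Ndufa8, Cycs and Atp5g2 were not called, with differences of 0.12, -0.20 and -0.05. A match is a description of the letters and not a binding site. The windows of the 3 genes that rose are shown with the core in capitals, Uqcrc1 at chr9:108936398-108936697 on the + strand, Cox6a1 at chr5:115348909-115349208 on the - strand and Atp5j at chr16:84834927-84835226 on the - strand.
Uqcrc1: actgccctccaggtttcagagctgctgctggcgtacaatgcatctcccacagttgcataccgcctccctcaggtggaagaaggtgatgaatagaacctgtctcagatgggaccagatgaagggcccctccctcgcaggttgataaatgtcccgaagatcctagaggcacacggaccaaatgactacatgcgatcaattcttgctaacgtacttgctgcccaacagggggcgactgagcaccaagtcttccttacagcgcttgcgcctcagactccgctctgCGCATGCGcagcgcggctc
Cox6a1: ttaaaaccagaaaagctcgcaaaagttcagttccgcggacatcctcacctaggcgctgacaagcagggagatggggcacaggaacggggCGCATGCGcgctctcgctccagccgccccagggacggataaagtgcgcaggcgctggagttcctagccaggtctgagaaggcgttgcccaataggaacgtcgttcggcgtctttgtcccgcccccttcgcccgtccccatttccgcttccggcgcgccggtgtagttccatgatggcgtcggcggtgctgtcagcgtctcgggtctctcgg
Atp5j: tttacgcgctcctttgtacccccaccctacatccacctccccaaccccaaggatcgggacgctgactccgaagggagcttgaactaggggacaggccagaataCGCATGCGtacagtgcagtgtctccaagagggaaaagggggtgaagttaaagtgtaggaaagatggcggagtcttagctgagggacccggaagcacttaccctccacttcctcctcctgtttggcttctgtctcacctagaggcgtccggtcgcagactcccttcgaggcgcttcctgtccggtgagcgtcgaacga
The core began 32 bases after the gene's start in Uqcrc1, and upstream of it, at -160 and -146, in Cox6a1 and Atp5j.

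Genes of the synaptic vesicle, which stores and releases transmitter at nerve endings, lay lower on the mutant-labelled arrays. Of 15 tested members 4 fell and none rose, where 12.7% of all genes fell, none of the 15 differences was above 0, and the median was -0.32. Rab3a, a vesicle GTPase, read 1576.5, 1756.7 and 1302.6 against 731.3, 640.9 and 993.5, lower by 0.98 ± 0.28 (adjusted p = 0.0173), and it missed the threshold without wild-type-labelled replicate 2 or mutant-labelled replicate 2 (adjusted p up to 0.0787). Napb, which recycles the fusion machinery, read 569.5, 579.1 and 584.3 against 312.1, 384.8 and 299.1, lower by 0.81 ± 0.17 (adjusted p = 0.00296), and it held without each array. The fusion proteins Stx1a and Vamp2 fell by 0.56 ± 0.20 and 0.32 ± 0.11, with a highest adjusted p of 0.243 and 0.164 without mutant-labelled replicate 3. The count was 2 without any 1 of wild-type-labelled replicates 1, 2 and 3 or mutant-labelled replicates 2 and 3, and 6 without mutant-labelled replicate 1. It was also 2 in a fit that added the mutant-labelled 2 h arrays. Vamp2 had a second probe set that fell by 0.82 (adjusted p = 0.00388). Markers of brain neurons and of the olfactory bulb also lay lower. Snap25 and Syt1, at -0.17 and -0.40, are counted in both lists, so the lists are not independent. Of 5 tested 1 fell, none was above 0, and the median was -0.40. The signals of all 14 on the array, 5 of them at or below the floor on all 6 arrays, summed to 22794 to 25101 on the wild-type-labelled arrays and 15535 to 20032 on the mutant-labelled ones. The sums did not overlap, and neither did 43.2% of all probe sets tested. The group means were 9890.2 against 6441.7 for Calb2, 4974.3 against 3782.6 for Syt1 and 5764.7 against 5162.8 for Snap25. The sums thus largely restate these genes. The member that fell was Calb2, a calcium-binding protein of neurons, from 9049.7, 11017.1 and 9603.7 to 7195.4, 6613.5 and 5516.3, by 0.62 ± 0.12, and it held without each array. The part of such cells in the synaptic vesicle difference was not tested.

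Markers of mature olfactory sensory neurons differed little. Of 11 tested, 1 rose, Gnb1, and the median was -0.10. Omp itself was higher by 0.25 ± 0.11 (adjusted p = 0.103), while the transduction genes Adcy3 and Cnga2 gave -0.25 ± 0.13 and -0.33 ± 0.15 without passing the test. Of 13 immature neuron markers 3 fell and 1 rose, where 12.7% of all genes fell and 9.62% rose. Dpysl3, Dcx and Crmp1, which shape the cytoskeleton of growing neurons, fell by 0.60 ± 0.18, 0.49 ± 0.17 and 0.50 ± 0.16, and Stmn2, a microtubule regulator of growth cones, rose by 0.52 ± 0.17 on its brightest probe set while another gave -0.46 (adjusted p = 0.127). Gap43, of growing axons, gave -0.14 ± 0.22, and its groups overlapped, with 6737.0, 9969.0 and 9892.5 against 8288.6, 9254.3 and 6488.1. None of the 3 falls held without every array. No fall was called without wild-type-labelled replicate 2 or mutant-labelled replicate 3, and 1 was without wild-type-labelled replicate 3 or mutant-labelled replicate 2. Stmn2 was called only without wild-type-labelled replicate 2 or mutant-labelled replicate 3. The highest adjusted p were 0.113 for Dpysl3, 0.162 for Dcx, 0.167 for Crmp1 and 0.119 for Stmn2.

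Of 12 basal and progenitor cell markers 2 fell and none rose, a count near the 12.7% of all genes that fell. Kit, a receptor of globose basal progenitors and of mast cells, read 1077.1, 984.7 and 1088.8 against 646.6, 610.4 and 761.8, lower by 0.65 ± 0.13 (adjusted p = 0.00153). Neurod1, a factor of late neuronal precursors, read 701.3, 795.6 and 730.4 against 533.8, 439.2 and 287.9, lower by 0.86 ± 0.21 (adjusted p = 0.00698) and by 0.61 (adjusted p = 0.0535) without mutant-labelled replicate 3. Of 21 cell cycle genes 3 fell, which is near the 12.7% of all genes. These were the proliferation marker Mki67 (-0.76 ± 0.24) and the replication helicase subunits Mcm3 (-0.48 ± 0.13) and Mcm4 (-0.35 ± 0.12). Each lost its call without some array, with a highest adjusted p of 0.0926, 0.076 and 0.257, and none of the 3 was called without mutant-labelled replicate 3. Only 1 was without wild-type-labelled replicate 3 or mutant-labelled replicate 1 or 2.

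Of 14 sustentacular cell markers 2 rose and none fell, a count near the 9.62% of all genes that rose; 13 had a difference above 0, and the median was 0.22. Cyp2f2, a cytochrome P450 of airway epithelia, read 25469.1, 25200.4 and 24130.2 against 31978.3, 31741.6 and 35834.3, higher by 0.41 ± 0.12 (adjusted p = 0.0184). Aldh1a1, which makes retinoic acid, was higher by 0.44 ± 0.13 (adjusted p = 0.0216). These calls depended on the scaling of bright signals, since after quantile normalization the differences were 0.16 and 0.18 (adjusted p = 0.223 and 0.27). Without mutant-labelled replicate 3 neither was called (adjusted p = 0.0781 and 0.0951), and 1 was without wild-type-labelled replicate 1 or 3. Of 22 phase I enzymes, which oxidise foreign compounds, 3 rose, these 2 and Aldh2 (0.44 ± 0.12; adjusted p = 0.0711 without mutant-labelled replicate 3), none after quantile normalization or without that array. Of 35 phase II and antioxidant enzymes 6 rose and 2 fell, with a median of 0.02. These counts too were not far from the shares over all genes. Gpx2, an epithelial glutathione peroxidase, rose by 0.78 ± 0.23 and missed the threshold without mutant-labelled replicate 3 (adjusted p = 0.102) or wild-type-labelled replicate 2. Gpx1, its widespread relative, fell by 0.63 ± 0.14, and Nnt, which supplies mitochondrial NADPH, by 1.31 ± 0.16. The rise count was 3 after quantile normalization and 3 without wild-type-labelled replicate 2. Among ciliated cell markers Spa17, a sperm-tail and cilium protein, rose from 3606.7, 3908.0 and 3819.2 to 5675.7, 6847.7 and 7295.5, by 0.80 ± 0.15.

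Macrophages are the cells known to carry SR-A, and their other markers moved little. Of 15 tested 2 rose and 1 fell, where 9.62% of all genes rose and 12.7% fell, and the median was 0.08. Lyz2, the lysozyme of macrophages and granulocytes, read 4248.3, 3588.3 and 3292.5 against 6758.1, 4918.2 and 9010.8, higher by 0.86 ± 0.28 (adjusted p = 0.0302). It lost its call in 4 of the 6 leave-outs, with 0.64 (adjusted p = 0.144) without mutant-labelled replicate 3. Tyrobp, an adaptor of myeloid receptors, rose by 0.56 ± 0.19 and lost its call without each single array (adjusted p from 0.069 to 0.0835). Neither was called without wild-type-labelled replicate 2 or 3 or mutant-labelled replicate 1 or 3, and 1 was without wild-type-labelled replicate 1 or mutant-labelled replicate 2. Laptm5, a lysosomal protein of blood cells, fell by 0.49 ± 0.11 on its brighter probe set and rose by 0.61 (adjusted p = 0.00377) on the other, so its direction is uncertain. Cd68, a lysosomal marker of macrophages, gave -0.21 ± 0.16 (adjusted p = 0.346), and Csf1r, the receptor of their growth factor, 0.01 ± 0.14. The summed signal of the 22 macrophage markers on the array was 28727 to 32849 and 31451 to 38973 in the 2 groups, which overlap.

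Of 10 scavenger and lipoprotein receptor genes limma called 0, with 1 at an unadjusted p under 0.05. It also called 0 of 13 interferon-stimulated genes, 4 of them at an unadjusted p under 0.05, with a median of 0.28. Of 8 chemokine genes it called 0, with 0 at an unadjusted p under 0.05. Of 29 lysosomal genes 1 rose and 2 fell, where 9.62% of all genes rose and 12.7% fell. Among them were the cathepsins Ctsh (0.57 ± 0.15) and Ctse (-0.55 ± 0.12). Ctsh missed the threshold without wild-type-labelled replicate 2 (0.43, adjusted p = 0.0559) or mutant-labelled replicate 3. In antigen presentation, of 11 tested genes of MHC class I and the immunoproteasome 2 rose and 1 fell. Of 8 tested genes of MHC class II 1 rose and 2 fell. In the former list Psme1, a proteasome activator, rose by 0.51 ± 0.13 and H2-D1 by 0.4 ± 0.14, while H2-Q10 fell (-0.58 ± 0.17). In the latter H2-DMb1, a chaperone of MHC class II, fell by 0.67 ± 0.16, H2-DMb2 fell (-0.62 ± 0.19) and H2-DMa rose by 0.34 ± 0.11. H2-D1, H2-Q10, H2-DMb2 and H2-DMa each lost their calls in some leave-outs, with highest adjusted p of 0.206, 0.127, 0.103 and 0.14. Cd59a, which protects cells from complement, read 1230.7, 847.9 and 1136.4 against 1584.9, 2310.2 and 1926.0, higher by 0.86 ± 0.22. Of 17 genes of endoplasmic reticulum stress 2 rose and 2 fell, near the shares over all genes. The calnexin gene Canx fell by 0.73 ± 0.15 and Ero1a, which feeds disulfide formation, by 0.64 ± 0.14 and 0.77 ± 0.14 on its probe sets, while Pdia6, a disulfide isomerase, rose by 0.60 ± 0.12 on its brightest probe set. Its other tested probe sets gave 0.34 (adjusted p = 0.108) and 0.38 (adjusted p = 0.0623), and the call was lost with the mutant-labelled 2 h arrays in the fit (adjusted p = 0.457). In glycolysis Pgk1 rose by 0.52 ± 0.12 and the neuronal enolase Eno2 fell by 0.55 ± 0.12. Pgk1, Eno2, Psme1, H2-DMb1, Cd59a, Canx, Ero1a and Pdia6 held without each single array.

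**Figure D2:**
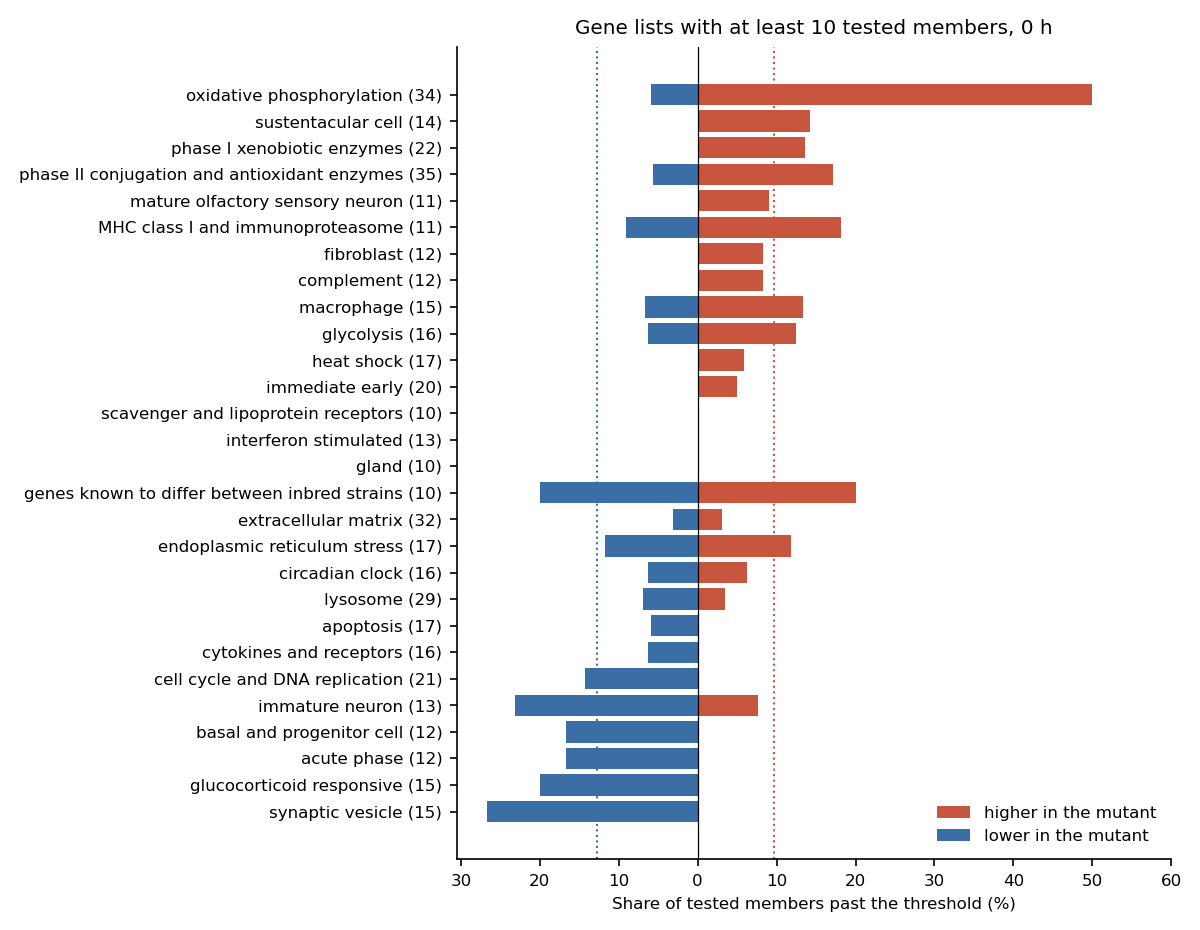
Share of the tested members of each gene list that rose (right) or fell (left) at 0 h, for lists with at least 10 tested members, whose number is in parentheses. Dotted lines mark the shares over all 5396 genes, 9.62% higher and 12.7% lower. The list of oxidative phosphorylation, with 17 of 34 higher, stands furthest from the line on the right, and the synaptic vesicle list, with 4 of 15 lower, furthest on the left.

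The arrays at 8, 16 and 48 h are other arrays than those at 0 h, so the genotype difference could be read there again. In the mean difference over these times 2136 probe sets (30.7%) were called. Of the 1624 changed at 0 h, 1488 (91.6%) had the same sign in that mean, against 66.4% of the probe sets not called at 0 h. In all, 892 were called with the same sign, which is 54.9% of the 0 h calls and 41.8% of the later ones, and 9 with the opposite sign. This count was 572 without wild-type-labelled 0 h replicate 3 and 571 without mutant-labelled 0 h replicate 2. Time by time, 6.85%, 11.2% and 20.0% of all tested probe sets were called at 8, 16 and 48 h. Of the 1624, 283 were called with the same sign at 8 h, 321 at 16 h and 487 at 48 h, which are 59.3%, 41.0% and 35.0% of the calls at those times, and 1, 2 and 25 were called with the opposite sign. Of the immunoglobulin genes Ighm, Igha, Igkv6-23 and Jchain were called in the later mean, at 2.17, 2.08, 2.18 and 1.36. That mean joins unlike times. At 16 h Ighm, Igha and Jchain differed by 0.38, 0.25 and 0.05 (adjusted p = 0.723, 0.822 and 0.952), while at 48 h Ighm, Igha and Jchain were higher by 4.38, 4.39 and 2.97, close to or above their 0 h values.

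**Figure D3:**
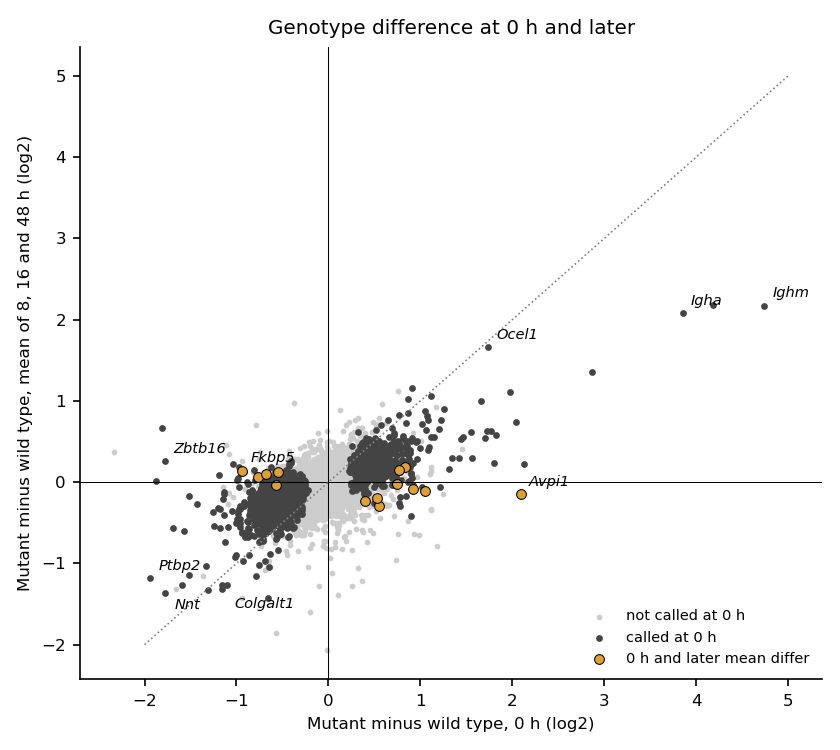
Log2 genotype difference at 0 h (horizontal) against the mean difference over 8, 16 and 48 h (vertical), for probe sets with 1 gene, with the dotted line where both are equal. Grey points were not called at 0 h, dark points were, and orange points had a 0 h difference that differed from the later mean. Ocel1 lies close to the line, Ighm and Igha below it and Avpi1 near 0 later.

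At 2 h the picture was different. The mutant-labelled 2 h arrays were not in the fit, because their Gapdh control stood apart. Compared with the wild-type-labelled 2 h mean, they shared the sign of the 0 h difference in 966, 813 and 915 of the 1624 probe sets in replicates 1, 2 and 3. These are shares of 59.5%, 50.1% and 56.3%, near those of the probe sets not called at 0 h, which were 53.6%, 51.0% and 52.0%. On the mutant-labelled 8 h arrays the corresponding shares were 88.3%, 87.1% and 85.8% of the called and 65.4%, 63.4% and 63.3% of the others. The 8 h arrays had a high 18S control, at 1322.2 to 2025.8, like those at 0 h, and the 2 h arrays had a low one. How far RNA integrity, ribosomal RNA and time each bear on the low shares at 2 h was not tested.

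**Figure D4:**
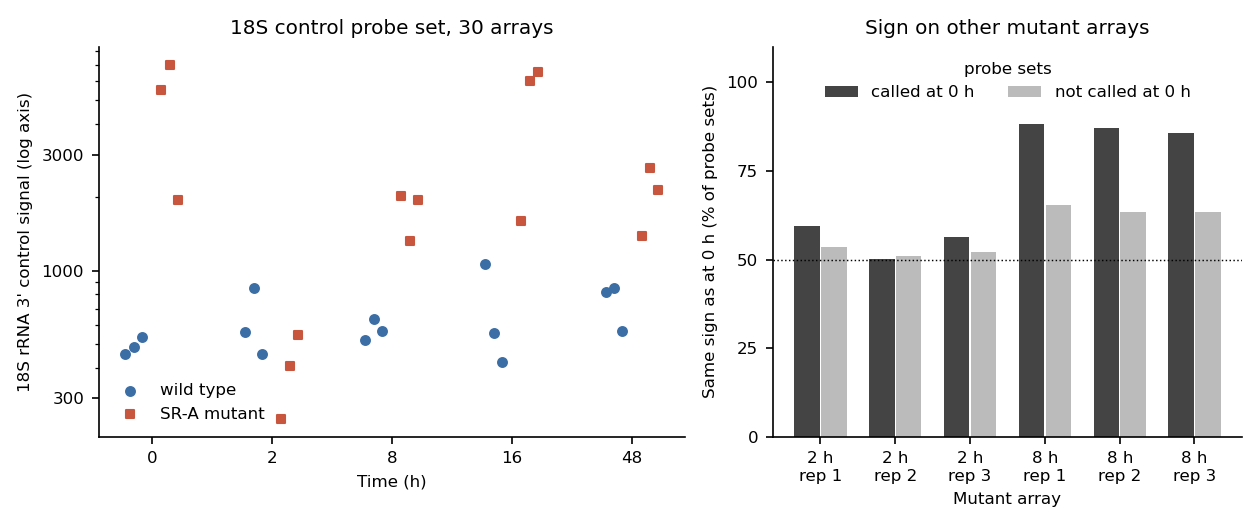
Left, the 18S ribosomal RNA 3′ control signal on a log axis for each of the 30 arrays by time. The mutant-labelled arrays (squares) lie above the wild-type-labelled arrays (circles) at 0, 8, 16 and 48 h and not at 2 h. Right, percentage of probe sets on each mutant-labelled 2 h or 8 h array with the sign of the 0 h difference, for probe sets called (dark) or not called (light) at 0 h, with a dotted line at 50%; the dark bars lie between 50.1% and 59.5% at 2 h and between 85.8% and 88.3% at 8 h.

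A small set of probe sets differed between the genotypes at each of 0, 8, 16 and 48 h. There were 72, of which 30 were higher and 42 lower in the mutant-labelled arrays, for 61 genes. On the 2 h arrays 38 of the 72 had the same sign, and in 12 the 2 h groups did not overlap in the same direction. Ocel1, a gene of chromosome 8 with a domain shared with the tight junction protein occludin, was the clearest. It read 433.2, 477.5 and 529.4 against 1621.5, 1673.6 and 1508.2 at 0 h, higher by 1.74 ± 0.12 (adjusted p = 3.76e-09), with 1.73, 1.66 and 1.60 at 8, 16 and 48 h. At 2 h it read 444.5, 516.2 and 490.5 against 1784.0, 1727.2 and 1495.8, so that it was as large there too. Colgalt1, which adds galactose to collagen, also of chromosome 8, read 1930.0, 1484.9 and 1737.6 against 785.3, 687.3 and 818.9 at 0 h, lower by 1.16 ± 0.15. It read 1916.6, 1912.8 and 1908.1 against 455.8, 709.9 and 799.6 at 2 h.

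Nnt encodes the nicotinamide nucleotide transhydrogenase of the inner mitochondrial membrane and lies on chromosome 13. As background, the C57BL/6J strain carries a deletion in it. It read 811.0, 794.9 and 1063.5 against 353.6, 313.1 and 402.2 at 0 h, lower by 1.31 ± 0.16 (adjusted p = 3.03e-05), and 687.8, 773.7 and 769.4 against 498.7, 447.0 and 403.3 at 2 h. It differed by -1.30, -1.60 and -1.09 at 8, 16 and 48 h. Of 10 tested genes listed as known to differ between inbred strains, 2 fell and 2 rose at 0 h, Nnt the largest. Over all genes, 12.7% fell and 9.62% rose. Fam32a, on chromosome 8, rose on its 3 probe sets, by 1.11 ± 0.16, 1.07 and 0.43, and its 2 h groups did not overlap on the former 2 of these. Gatad2a, a subunit of the NuRD chromatin complex on chromosome 8, fell by 1.33 ± 0.17 and 0.88 on 2 of its probe sets and gave 0.19 (adjusted p = 0.188) on another.

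Chromosome 8 held 10 of the 61 genes of this set (16.4%), while 5.37% of all genes tested lie on it. On each mutant-labelled 2 h array 8 of its 11 probe sets kept the sign of 0 h, against 43, 31 and 47 of all 72. The set was chosen on the 0, 8, 16 and 48 h contrasts, so these shares are a description. Other members were short, bright transcripts of the respiratory chain and the ribosome, such as Uqcrh (0.66 at 0 h), Atp5l (0.71), Rpl19 (0.53) and Rps18 (0.51), named after their values were seen. Some of the largest falls came from a single probe set. Ptbp2, a neuronal splicing regulator, fell by 1.94 ± 0.25 on one probe set and gave -0.11 (adjusted p = 0.663) on the other. Ccni, an atypical cyclin, fell by 1.52 ± 0.25, and its other tested probe set gave 0.25 (adjusted p = 0.129). Snrpd3, a core splicing protein, and Acyp2, an acylphosphatase, rose by 1.22 ± 0.15 and 1.2 ± 0.16, and Sfrp1, a secreted Wnt inhibitor on chromosome 8, by 1.05 ± 0.18.

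**Figure D5:**
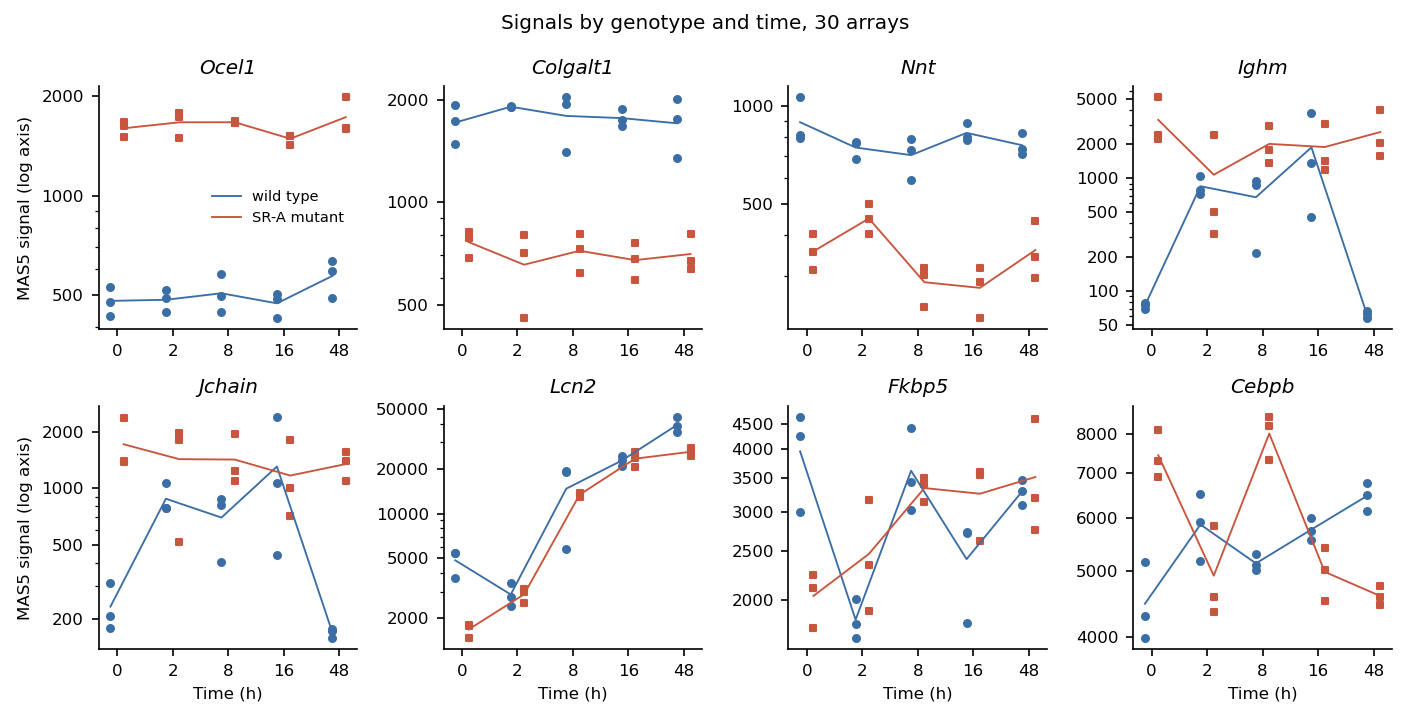
MAS5 signal on log axes for 8 genes on all 30 arrays by time, wild-type-labelled as circles and mutant-labelled as squares, with lines through the group means. Ocel1, Colgalt1 and Nnt keep the same order of genotypes at all 5 times, 2 h included. The wild-type-labelled means of Ighm and Jchain are lowest at 0 and 48 h, and Lcn2, Fkbp5 and Cebpb change their order over time.

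Few probe sets passed the threshold when the genotype difference at 0 h was tested against the mean of the later differences. At an unadjusted limma p under 0.05 there were 1177 of 6968. Among the 1624 changed at 0 h, the median ratio of the later mean to the 0 h difference was 0.44. Those 1624 were chosen on their 0 h values, so the ratio is a description. A missing call here does not mean an equal difference. The test of that difference called 17 probe sets (0.244%), all of them called at 0 h, 11 with the difference more positive at 0 h (0.158%) and 6 more negative (0.0861%), and 14 with a single gene. Ier2, an immediate early gene, read 3475.4, 3738.0 and 3547.7 against 5381.1, 5369.6 and 4993.6 at 0 h, higher by 0.55 ± 0.10, and had a later mean difference of -0.30. Cebpb had 0.74 at 0 h and 0.64, -0.21 and -0.49 at 8, 16 and 48 h. Plac8, a small protein of myeloid and epithelial cells, read 1570.4, 1560.7 and 1682.4 against 2789.9, 3364.7 and 2968.4, higher by 0.92 ± 0.14 with a later mean of -0.08. Lsp1, an actin-binding protein of leukocytes, was higher by 1.05 ± 0.19 with a later mean of -0.11. Ero1a (-0.77) and the glucocorticoid-responsive Fkbp5 (-0.94) were lower at 0 h, with later means of 0.06 and 0.14. The Lcn2 and Zbtb16 differences, at -0.17 and 0.26 in the later mean, were not among the 17. The count of 17 was 5 and 10 without wild-type-labelled replicate 1 or 3, 3 without mutant-labelled replicate 3, 7 with the mutant-labelled 2 h arrays in the fit and 31 with a variance trend and robust moderation.

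A line made by gene targeting keeps the chromosome segment around the targeted gene from the stem cells used, so genes near Msr1 on chromosome 8 were read by their order in the GRCm38.p6 annotation. Of the 25 tested genes before and 25 after Msr1, 14 changed (28.0%, against 22.3% of all genes), 3 higher and 11 lower, with a median of -0.15. Of the 50, 11 (22%) were also called with the same sign in the later mean, against 12.0% of all genes. The nearest called genes were Saraf, a regulator of calcium entry, 2 tested genes before Msr1, which fell by 0.31 ± 0.10, and Cnot7, a subunit of the deadenylase complex the next tested gene after it, which read 1043.2, 1030.5 and 1013.2 against 837.5, 685.5 and 811.4, lower by 0.41 ± 0.09. Mtmr7, a lipid phosphatase 2 tested genes after Msr1, read 1546.6, 1912.7 and 1747.1 against 1082.3, 1027.6 and 625.5, lower by 0.96 ± 0.23. Pcm1, of centriolar satellites, and Asah1, the lysosomal acid ceramidase, followed at -0.53 ± 0.14 and -0.47 ± 0.14. Adam9, a membrane protease, fell by 0.56 ± 0.12 at 0 h and by 0.68 in the later mean, and Fbxo8, an F-box protein, gave -1.01 ± 0.26 and -0.90. The 3 that rose were Sfrp1, the farthest of the 25 before Msr1, Fnta and Slc25a4. Sfrp1 gave 1.05 at 0 h and 0.88 in the later mean, and it held without each array. Fnta and Slc25a4 gave 0.41 and 0.36, and both missed the threshold without wild-type-labelled replicate 1 (adjusted p = 0.186 and 0.0734). Cnot7, Mtmr7 and Adam9 held without each array, while Pcm1 (adjusted p = 0.0569) and Fbxo8 (adjusted p = 0.0516) missed the threshold without mutant-labelled replicate 3. Saraf and Asah1 each missed it in 3 of the 6 leave-outs, with a highest adjusted p of 0.129 and 0.0812. The count of 14 was 9 without wild-type-labelled replicate 1 and 9 without mutant-labelled replicate 3. Over chromosomes the share of genes called ran from 16.9% on chromosome 19 to 29.1% on chromosome 12, with 24.1% on chromosome 8, so the 28.0% near Msr1 lay inside the range of whole chromosomes. The share also called later with the same sign ran from 8.47% on chromosome 7 to 16.5% on chromosome 12, with 15.2% on chromosome 8. The 22% near Msr1 lay above that range. A share of 50 genes scatters more than that of a whole chromosome, so its place against either range decides nothing, and the difference was not tested.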

How the data were processed

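RNA from olfactory epithelium was hybridised to Affymetrix MG-U74Av2 arrays. The deposited intensity values are linear MAS5 signals, per the submitters' processing notes, and were used as deposited; their trimmed means (2% cut from each end) are 1500.7 to 1500.9 on the 30 arrays. The depth of such arrays is not a read count, and their number limits the precision. Signals were raised to a floor of 113.7, the 25th percentile over all arrays, and set to log2. Of 12488 probe sets, 66 were controls, and 6968 with a signal above 572 on at least 3 of the 30 arrays were tested. Group means of 9 groups were fitted to 27 arrays with limma 3.58.1 in R 4.3.3 (two-sided, Benjamini-Hochberg adjusted p under 0.05), without the mutant-labelled 2 h arrays. A gene was represented by its brightest tested probe set with 1 symbol in the platform annotation (10833 probe sets; 10817 matched RefSeq). The steps were tested on simulated data.

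Named genes were the 15 largest rises and 15 largest falls whose arrays do not overlap, up to 4 called members of each of 43 lists, the 10 largest changes called at every fitted time, the 10 with the smallest p for the difference between 0 h and later times, the called neighbours of Msr1 (25 tested genes on each side) and a few markers whatever their values; further respiratory chain and ribosomal genes, Adcy3, Cnga2 and Csf1r were chosen after their values were seen. The members and lists were chosen with earlier results of these data known. Arrays were left out in turn, and 15 alternatives were tried in all.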

Additional observations from a re-analysis of the deposited data

Results flagged for a closer look

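The genotype difference at 0 h differed from the mean of the later differences in 17 probe sets. The 10 with a single gene and the smallest p are given here, as the 0 h difference minus the later mean. Among these 10 the largest values were those of Lsp1 at 1.16 (limma, adjusted p = 0.0212), Plac8 at 1.0 (adjusted p = 0.00983), Ier2 at 0.85 (adjusted p = 0.00176) and Cebpb at 0.76 (adjusted p = 0.00652). Gnb1 gave 0.64, Tuft1, an enamel and epithelial protein, 0.63 and Pdzk1ip1, a small membrane protein of epithelia, 0.62. Negative values among the 10 were those of Ero1a at -0.83, Rpp14, a subunit of ribonuclease P, at -0.78 and Ctse at -0.67. The other tested probe set of Rpp14 gave 0.02 at 0 h, where this one gave -0.68. Outside the 10, Avpi1 gave 2.24 (limma, adjusted p = 0.036) and Fkbp5 -1.08 (adjusted p = 0.0426).

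The 18S ribosomal RNA control, which enters no comparison of genes, averaged 4834.5 ± 2597.3 (SD, n = 3) on the mutant-labelled 0 h arrays and 492.0 ± 41.5 (SD, n = 3) on the wild-type-labelled ones. Its part in the differences was not tested.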

How the results depend on the processing

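Of the 115 named probe sets that changed at 0 h, 61 were called under each alternative that tested them (some fell out of 1 stricter filter) and 0 turned direction; 26 lost their call after quantile normalization, 20 without a filter and 19 in a fit of the 6 arrays alone. The 1624 changed probe sets became 989 to 1378 with 1 array left out, and 1342 after quantile normalization, 51.0% of them higher in the mutant-labelled arrays against 42.1%. The median difference moved from -0.056 to -0.014 there. The 892 probe sets also called later became 571 to 766 with 1 array left out. The 17 probe sets whose 0 h difference differed from the later mean became 7 with the mutant-labelled 2 h arrays included, 31 with a variance trend and robust moderation, and 3 to 18 with 1 array left out. The 14 changed neighbours of Msr1 became 9 to 13 with 1 array left out and 11 to 16 under the other settings. Without the floor, the other Msr1 probe set gave 1.31 in place of 1.95 on signals below it in the wild type. The drop after leaving out an array follows in part from fewer arrays; the other causes were not tested.

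Deviations of same-numbered arrays of the genotypes had correlations of 0.19, 0.35 and 0.07. Those of unlike-numbered arrays ran from -0.32 to 0.14. The titles give only replicate numbers, which were not read as pairs in the main fit. Whether same-numbered arrays were handled together was not tested. With the replicate block 1572 probe sets were called, 1524 of them shared, and 3 named probe sets lost their call. Signals near the floor limit what dim probe sets can show.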

Other observations

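Probe sets whose name ends in _r_at, which the array's design marks as departing from its usual rules for choosing probes, were called at 0 h in 106 of 285 cases, and those ending in _f_at, made of probes shared within a gene family, in 168 of 567, against 23.3% of all tested. One of the 72 probe sets called at every fitted time, with no gene name here, read 3151.5, 3457.7 and 2862.7 on the wild-type-labelled 0 h arrays and 1678.8, 1347.2 and 1042.5 on the mutant-labelled ones, and 3426.0, 2873.0 and 3151.3 against 322.7, 749.4 and 325.8 at 2 h.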
